A study of Homo sapiens with 60 samples.

Results

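The comparison described here is that of HepG2 cells treated for 24 h with a hot-water extract of Cinnamomi Cortex at 500 µg/mL against cells given vehicle. Cinnamomi Cortex is the dried bark of the cinnamon tree, and HepG2 is an established human liver carcinoma line that keeps many hepatocyte functions. The libraries were chosen by their labels, 3 treated and 3 vehicle, which makes 6 of the 60 samples of the series. All genes that passed the filter on low counts were compared, 16166 in number. The vehicle was dimethyl sulfoxide, given as 0.1% in the sample labels and as 2% in the design text, and the labels of the extract samples name no solvent. The series measured messenger RNA after several herbal extracts at several doses. Beside vehicle, values are set here against the same herb at 20 and 100 µg/mL and against Astragali Radix, another herb, at 500 µg/mL, each with 3 libraries of the same cells at the same time. The labels name no genetic change in any group.

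As background, a hepatoma cell that meets a mixture of plant polyphenols and other small molecules can respond through several known programmes. Low oxygen or a block of the oxygen sensors stabilises hypoxia-inducible factors, which raise glucose transporters, glycolytic enzymes and carbonic anhydrase. Shortage of amino acids or other stress raises translation of the factor ATF4, which drives amino acid synthesis and uptake, and electrophiles free the factor NRF2, which drives glutathione and quinone defence. Metallothioneins bind zinc and copper, and their genes follow the zinc sensor MTF1. The liver hormone hepcidin, which limits iron export, follows bone morphogenetic protein (BMP) signals through SMAD proteins. Genes of DNA replication and mitosis are transcribed in cells that pass through the cycle, so their messenger RNA follows proliferation.

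Total expected counts were between 24.36 M and 29.11 M in the 6 libraries and between 16.48 M and 34.41 M in the whole series. The share of counts from the mitochondrial genome was 14.4% to 16.7% in the vehicle libraries and 19.4% to 22.3% at 500 µg/mL. The 9 hepatocyte markers summed to 43680 to 43830 CPM (counts scaled to library size) in the vehicle libraries and to 56900 to 57600 CPM in the treated ones. The 17 markers of other cell types summed to 173.1 to 177.6 CPM and 299.5 to 319.5 CPM. Of these, 8 had no count in either group, among them PTPRC of leukocytes, KDR of endothelium and COL3A1 of fibroblasts, and of the 7 that could be tested CD68, KRT19 and PDGFRB rose and 2 fell, with the collagen COL1A1 lowest (-1.91), under 0.5 CPM and not called when treated replicate 2 was left out. The part of this shift in the results below was not tested. Within each group, libraries differed by more than counting error, so each was kept as a sample. No label says whether the 3 libraries of a group came from separate cultures, so the tests speak to the variation among these libraries alone, part of which may be technical. The sample codes begin with a number that Cinnamomi Cortex and Astragali Radix share, taken here as a set, while vehicle codes have no such number. A set or solvent difference and the effect of the extract cannot be told apart against vehicle. In bulk RNA a change in the share of cells that express a gene and a change of RNA per cell cannot be told apart either.

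The treatment moved most of the transcriptome. Of 16166 genes tested, 10140 were called at an adjusted p under 0.05 by edgeR's quasi-likelihood test (62.7%), 5027 higher (31.1%) and 5113 lower (31.6%). Most called genes moved by less than 2-fold. At least 2-fold changes were found in 2513, 1081 up and 1432 down, and 4419 moved by less than 0.5 on the log2 scale. These values use TMM scaling, which assumes that most genes keep their share. The median log2 fold change over all genes was -0.02, and the middle 50% of genes lay between -0.45 and 0.35. The 3 treated libraries lay entirely above the 3 vehicle libraries for 33.2% of genes and entirely below for 34% of genes, 67.2% together. Absence of overlap in single genes below is to be read beside these shares. It was a condition for the genes named for the size of their change. With scaling to library totals alone the median moved by -0.28 to -0.30, and of 10744 called genes 2598 were higher and 8146 lower, so that 24.2% of called genes were higher in place of 49.6%. All directions below are relative to the TMM centre, and list counts are to be read beside the 31.1% of all genes that rose and the 31.6% that fell. With totals alone, the lists of immediate early factors, hypoxia, glycolysis, amino acid stress and lysosome kept more members higher than lower, and every list of replication, mitosis and repair kept no member higher. Lists with a small median did not keep their balance: cholesterol genes then had 10 higher and 6 lower, nuclear respiratory genes 5 and 16, tRNA synthetases 7 and 9, zinc transporters 5 and 7, hepatocyte factors 6 and 11 and fatty acid oxidation 4 and 14. The same scaling gave 1 higher and 15 lower for the citric acid cycle, 5 and 11 for chaperones of the endoplasmic reticulum, 8 and 6 for glutathione, 6 and 6 for iron, 8 and 11 for carrier plasma proteins, 4 and 12 for nitrogen metabolism, 4 and 6 for bile acids, 4 and 6 for the pentose phosphate route and 7 and 12 for fatty acid synthesis. Changes were called more often among abundant genes. In the most abundant of 5 equal groups 50.1% rose and 27.6% fell, and in the least abundant 11.3% rose and 20.2% fell. Protein-coding genes, 12837 in number, split into 4553 that rose and 4268 that fell. Transcripts of transcribed unprocessed pseudogenes fell more often, with 33 that rose and 120 that fell of 241 and a median of -0.51. Counts of gene copies share reads with their parents, so single members of that class are uncertain.

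**Figure D1:**
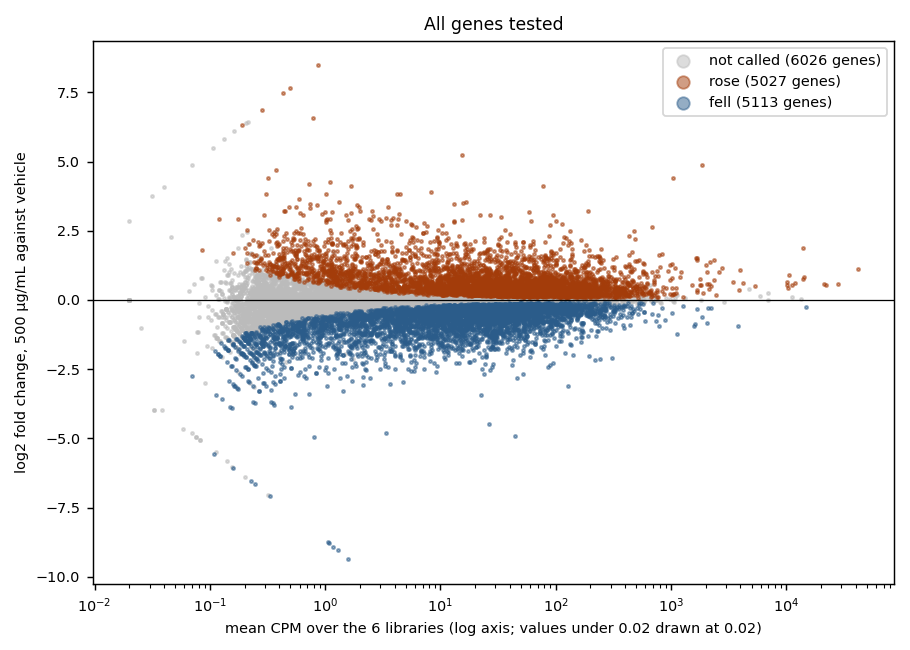
Each point is 1 of the 16166 genes tested, with the mean CPM over the 6 libraries on a log axis and the log2 fold change at 500 µg/mL against vehicle on the vertical axis. The 5027 genes that rose and the 5113 that fell lie on both sides of 0 at every level, and beyond 3 in size are 52 that rose and 42 that fell. Points beyond 5 in size other than IGFBP3 are nearly all genes with no count in 1 of the groups, whose fold change is no measured size.

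Among genes at a mean of 2 CPM or more over the 6 libraries, the largest rises belonged to secreted regulators, adhesion and membrane proteins and stress factors. IGFBP3, a carrier that binds insulin-like growth factors outside the cell, was at 0.765, 0.728 and 0.869 CPM in the vehicle libraries and at 28.7, 28.3 and 33.7 CPM in the treated ones. IGFBP1, a liver-made binding protein of the same family that insulin normally holds down, was at 108, 119 and 136 CPM and at 3247, 3673 and 3838 CPM. TNS1, the focal adhesion protein tensin, was at 7.54, 7.44 and 9.96 CPM and at 145, 148 and 145 CPM. The groups did not overlap in these genes, which was a condition for naming them. The log2 fold changes were 5.26 ± 0.20 (SE) for IGFBP3, 4.89 ± 0.20 for IGFBP1 and 4.13 ± 0.19 for TNS1. AQP3, a channel for water and glycerol, rose by 3.45 ± 0.13, from 2.19 ± 0.38 (SD, n = 3) to 24.1 ± 0.92 CPM. HCAR3, a receptor for hydroxylated fatty acids, rose by 3.23 ± 0.22, NDRG1, a stress protein, by 3.22 ± 0.16, DEPP1, a target of FOXO factors, by 3.19 ± 0.12, and METRNL, a secreted factor, by 3.35 ± 0.24. The pseudogene RASA4CP rose by 3.84 ± 0.29 and the intronic transcript AC025857.2 by 3.21 ± 0.32, and both stand at under 11 CPM in every library.

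Among the largest falls were those of metallothioneins, hepcidin and the kinetochore motor CENPE, described below with their groups, and of a mixed set of other genes. SCN1A, which encodes a sodium channel subunit, was at 81, 79.5 and 83.9 CPM with vehicle and at 11.1, 11.8 and 12 CPM at 500 µg/mL. GOLGA8B, of a golgin family with near-identical copies and thus uncertain, was at 87.5, 91.6 and 92.2 CPM and at 13.8, 14.4 and 13.9 CPM. FAM111B, a protease-like protein, was at 44, 40.1 and 40.1 CPM and at 6.5, 5.65 and 7.05 CPM. Absence of overlap was a condition for naming these genes too, and the log2 fold changes were -2.81 ± 0.06, -2.69 ± 0.06 and -2.69 ± 0.10. SLC22A7, an organic anion transporter of the hepatocyte membrane, had a log2 fold change of -2.81, and ACSM2A, a mitochondrial acyl-CoA synthetase with near copies, one of -2.58. SEC31B, a coat protein of secretory vesicles (-3.06), CCDC144NL (-3.02), of a family with near copies, and JAKMIP2 (-2.78) also fell.

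**Figure D2:**
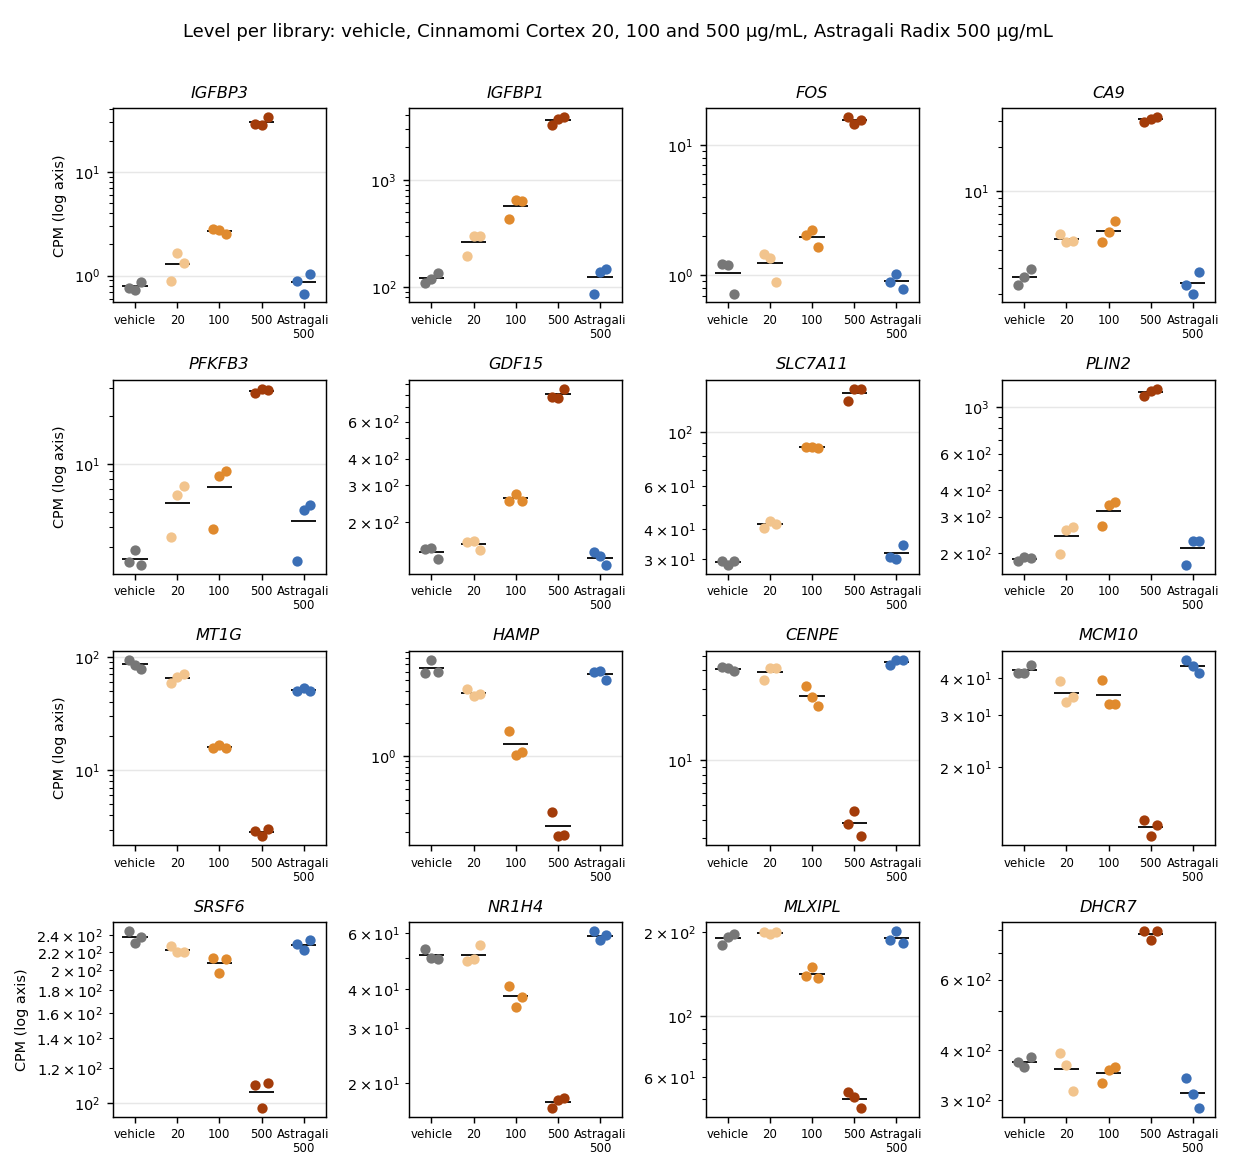
Each panel shows 1 gene, with CPM on a log axis, 1 point per library and the mean as a bar, for vehicle, for Cinnamomi Cortex at 20, 100 and 500 µg/mL and for Astragali Radix at 500 µg/mL. In each of the 16 genes the 3 libraries at 500 µg/mL stand apart from the 3 vehicle libraries, as they do in 67.2% of all genes tested. Several also move at 100 µg/mL, among them IGFBP1, IGFBP3, CA9, MT1G and HAMP.

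Genes of insulin and growth factor signalling rose as a group. Of 26 tested members 20 rose and 3 fell, with a median of 0.57. Beside IGFBP1 and IGFBP3, the binding proteins IGFBP2 (1.70), IGFBP6 (1.43) and IGFBP4 (1.24) rose. PCK1, the enzyme that commits carbon to glucose synthesis, was at 7.65, 8.37 and 8.84 CPM with vehicle and at 25.8, 30.9 and 32.5 CPM with the extract, with no overlap, a rise of 1.84 ± 0.10. G6PC1, which releases free glucose, rose by 1.42 ± 0.10. The receptors INSR (0.62), IGF1R (0.52) and IGF2R (0.64) also rose. PIK3R1, the regulatory subunit of phosphoinositide 3-kinase, fell by 0.66 on the log2 scale, and IGF2 itself, at 0.13, did not pass the test.

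All 19 tested members of a list of immediate early transcription factors rose, with a median of 1.82 and 15 at least 2-fold up. These factors are induced within minutes of growth factor or stress signals. FOS was at 1.22, 1.19 and 0.724 CPM in the vehicle libraries and at 16.4, 14.6 and 15.7 CPM in the treated ones. FOSB was at 0.383, 0.496 and 0.761 CPM and at 8.43, 7.9 and 7.28 CPM. EGR1, a zinc finger factor, was at 23, 23.4 and 23.8 CPM and at 157, 157 and 146 CPM. The treated libraries lay entirely above the vehicle libraries in all 19, against 33.2% of all genes tested. The log2 fold changes were 3.89 ± 0.18 for FOS, 3.83 ± 0.27 for FOSB and 2.72 ± 0.09 for EGR1. EGR2 (3.13), EGR3 (2.93) and JUND (2.11) rose as well, the first of them at about 1 CPM. The remaining 3 genes on the list had too few counts to be tested.

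Inhibitors and ligands that these signals induce also rose. Of 21 tested genes for feedback on mitogen-activated kinases and for ligands of the EGF receptor, 18 rose and 1 fell, with a median of 0.86. DUSP1, a phosphatase that shuts off such kinases, was at 10.3, 11.1 and 10.8 CPM with vehicle and at 59.8, 60.9 and 67.1 CPM with the extract, a rise of 2.54 ± 0.09. HBEGF, a ligand of the EGF receptor, rose by 2.45 ± 0.14, DUSP5 by 2.43 ± 0.14 and ERRFI1, an inhibitor of the receptor, by 1.74 ± 0.08, while ERBB2 fell by 0.21. Of 19 tested targets of NF-kB and cytokine genes, 12 rose and 2 fell, led by the cytokine IL11 (2.71 ± 0.19) and the chemokine CCL20 (1.99 ± 0.10). The NF-kB inhibitor NFKBIA, a sensitive target of the pathway, was at 0.10 and not called, and NFKBIZ fell by 0.97 on the log2 scale. Of the list, 7 genes, IL6, TNF and IL1B among them, had too few counts to be tested.

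The word TGANTCA, the site of AP-1 factors such as FOS and JUND, was searched on both strands in the 250 bases before the start of each gene, in RefSeq promoters of GRCh38.p14 that matched 11096 of the tested genes. It stood in 3.9% of these promoters, in 8.9% of the 718 of genes that rose at least 2-fold and in 4.7% of the 832 of genes that fell at least 2-fold. Not every gene with the word was considered for display, so genes left out may have risen further. Among those considered at 2 CPM or more, other than CA9, IL11 rose furthest. Its promoter, at chr19:55370464-55370713 on the minus strand, is shown with the word in capitals.
IL11: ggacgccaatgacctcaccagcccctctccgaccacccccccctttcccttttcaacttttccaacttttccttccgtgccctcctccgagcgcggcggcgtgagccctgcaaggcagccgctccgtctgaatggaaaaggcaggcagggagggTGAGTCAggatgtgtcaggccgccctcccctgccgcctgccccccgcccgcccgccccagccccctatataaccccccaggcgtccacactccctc
The word begins 96 bases before the start. A match of letters is a description and not a binding site.

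Genes of the hypoxia response rose together, and so did the glycolytic pathway. On a list of 23 hypoxia signals and feedback genes 21 rose and none fell, with a median of 1.54. CA9, a carbonic anhydrase of the outer membrane that handles acid, was at 2.3, 2.61 and 2.97 CPM with vehicle and at 29.8, 30.8 and 31.9 CPM with the extract. ADM, the vasodilator peptide adrenomedullin, was at 5.59, 5.95 and 5.79 CPM and at 44.7, 48.4 and 51.3 CPM. EGLN3, an oxygen-sensing prolyl hydroxylase that hypoxia itself induces, was at 0.65, 0.959 and 0.58 CPM and at 5.05, 6.01 and 5.19 CPM. No treated library overlapped a vehicle library in these genes, and the log2 fold changes were 3.55 ± 0.17, 3.06 ± 0.12 and 2.87 ± 0.24. The mitophagy receptors BNIP3 (1.51) and BNIP3L (1.64) and the growth factor VEGFA (0.72 ± 0.06) rose. The sensor and factor genes moved less: HIF1A was at 0.13 ± 0.06 (adjusted p = 0.0477) with TMM and at -0.15 with totals alone, and VHL (0.01) and HIF1AN (0.09) did not pass the test.

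The hypoxia response core ACGTG, searched in the same way, stood in 23.1% of all promoters, in 21.3% of those of genes that rose at least 2-fold and in 20.1% of those that fell at least 2-fold. It stood in 7 of 18 with a sequence on the hypoxia list, in 10 of 24 on the glycolysis list and in 6 of 15 on the immediate early list. The promoter of CA9 holds it on the minus strand 18 bases before the start, at chr9:35673678-35673927 on the plus strand, and is shown because CA9 had the largest rise on the hypoxia list.
CA9: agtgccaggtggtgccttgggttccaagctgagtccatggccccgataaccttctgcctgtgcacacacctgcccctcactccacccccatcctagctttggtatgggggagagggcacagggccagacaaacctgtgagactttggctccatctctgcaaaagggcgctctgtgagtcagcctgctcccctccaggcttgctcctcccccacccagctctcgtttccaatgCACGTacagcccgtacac
The capitals mark the word as it reads on the plus strand.

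Of 26 genes for glucose uptake and glycolysis, 22 rose and 2 fell. Their median was 1.12, and 16 were at least 2-fold up. PFKFB3, which makes the activator of phosphofructokinase, was at 2.41, 2.88 and 2.32 CPM with vehicle and at 27.8, 29.8 and 29.3 CPM at 500 µg/mL, a rise of 3.51 ± 0.27 with no overlap. At 20 µg/mL it was at 3.45, 6.37 and 7.30 CPM. With Astragali Radix at 500 µg/mL it was at 2.47, 5.15 and 5.52 CPM. Its difference was thus smaller within the set, 2.33 against 20 µg/mL and 2.67 against Astragali Radix. The hexokinase HK1 rose by 2.87, PFKFB4, a relative of PFKFB3, rose by 2.11 ± 0.17, the hexokinase HK2 by 1.40 ± 0.08, PGK1 by 1.43 ± 0.06 and the pyruvate dehydrogenase kinase PDK1 by 1.56. The members that fell were the liver forms: SLC2A2, the low-affinity glucose transporter of hepatocytes, went from 41.4 ± 2.6 to 18.8 ± 0.65 CPM (-1.14 ± 0.06), and the liver pyruvate kinase PKLR fell by 0.42. The citric acid cycle stood apart from glycolysis, with 8 of 22 genes that rose, 3 that fell; its median was -0.04. Of 44 nuclear genes of the respiratory chain 24 rose and 4 fell by small amounts (median 0.19). Over all genes tested 31.1% rose, and in the most abundant of 5 equal groups 50.1% did. Of 13 messenger RNAs of the mitochondrial genome 10 rose (median 0.59), with MT-CO1 at 22140, 21220 and 24720 CPM in the vehicle libraries and 36190, 35230 and 30760 CPM in the treated ones.

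Genes of the response to amino acid shortage rose, regulators and transporters included. Of 15 tested regulators 13 rose and 1 fell, with a median of 0.98. ATF4, the central factor, was at 406, 416 and 387 CPM in the vehicle libraries and at 771, 790 and 817 CPM in the treated ones, a rise of 0.98 ± 0.04. GDF15, a stress hormone, was at 149, 150 and 133 CPM and at 787, 779 and 861 CPM, a rise of 2.49 ± 0.08. Neither gene overlapped between groups. DDIT4, an inhibitor of mTOR signalling, rose by 2.22 ± 0.11 and the pseudokinase TRIB3 by 1.56 ± 0.07, while the shortage sensor EIF2AK4, at -0.10, was called here but not by DESeq2. Among 21 genes of amino acid and one-carbon synthesis 15 rose and 3 fell (median 0.47), led by ASNS, which makes asparagine, and CTH, which makes cysteine (1.32). ASNS was at 47.2, 44 and 43 CPM with vehicle and at 138, 136 and 136 CPM with the extract (1.61 ± 0.05). Of 13 transporters 11 rose and 1 fell (median 0.93), among them the cystine transporter SLC7A11 (2.32 ± 0.07), from 29.2 ± 0.65 to 146 ± 9.6 CPM, and SLC38A2 (1.32 ± 0.05). Of 20 cytosolic tRNA synthetases 13 rose and 3 fell (median 0.28), led by CARS1 (0.85) and GARS1 (0.83). FARSB fell by 0.63.

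The word TGATGNAA, the core of the amino acid response element, stood in 1.5% of all promoters in 2.8% of those of genes that rose at least 2-fold and in 2.3% of those that fell at least 2-fold. It stood in 3 of 14 with a sequence on the amino acid synthesis list, those of ASNS, GOT1 and MTHFD1L, in 0 of 13 on the list of amino acid stress regulators and in 0 of 10 on that of amino acid transporters. The promoter of ASNS, at chr7:97872409-97872658 on the minus strand, is shown because it had the largest rise of the 3, and its word, in capitals, begins 68 bases before the start.
ASNS: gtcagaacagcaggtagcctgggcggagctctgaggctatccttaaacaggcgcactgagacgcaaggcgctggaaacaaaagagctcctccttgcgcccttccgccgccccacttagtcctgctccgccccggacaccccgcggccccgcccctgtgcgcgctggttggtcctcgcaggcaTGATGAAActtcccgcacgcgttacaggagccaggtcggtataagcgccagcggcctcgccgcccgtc
GOT1, an aminotransferase, rose by 1.19 and MTHFD1L, a mitochondrial folate enzyme, by 0.56.

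Chaperones had no common direction. Of 21 chaperones and sensors of the endoplasmic reticulum 9 rose and 4 fell, with a median of 0.04. The abundant chaperone HSP90B1 was at 1015, 1040 and 1044 CPM with vehicle and at 536, 537 and 530 CPM with the extract, a fall of 0.95 on the log2 scale, and HSPA5 fell by 0.28. The degradation factors DNAJB9 (1.40 ± 0.10) and HERPUD1 (1.13) and the sensor ERN1 (1.25) rose. Of 20 heat shock genes 8 rose and 9 fell, with a median near 0. The cytosolic chaperone HSP90AA1 was at 1568, 1586 and 1545 CPM and at 653, 692 and 675 CPM, lower in every treated library, while HSPA1A (0.73) rose. HSPA1A shares nearly all its sequence with HSPA1B (0.49), so the split between them is uncertain.

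Several genes of oxidant defence rose. Of 19 tested glutathione genes 13 rose and 4 fell (8 and 6 with scaling to totals alone), and the list median was 0.42. GCLC, the catalytic subunit of the first step of glutathione synthesis, was at 73.7, 71.5 and 71.4 CPM in the vehicle libraries and at 198, 196 and 204 CPM in the treated ones (1.47 ± 0.04), and its partner GCLM rose by 0.97 ± 0.08. The members that fell were transferases that conjugate glutathione. GSTA1 was at 38.1, 37.9 and 34.7 CPM and at 10.3, 7.44 and 9 CPM (-2.05 ± 0.10), GSTA2 fell by 2.60, GSTA4 by 0.97 and GSTM4 by 0.51. GSTA1 and GSTA2 are close copies, so the split between them is uncertain. Of 26 tested genes of thioredoxin, quinone and heme defence 18 rose and 4 fell (median 0.49), and 2 fell without vehicle replicate 2 or without treated replicate 2. SQSTM1, an autophagy receptor that also sequesters the NRF2 inhibitor KEAP1, was at 175, 177 and 168 CPM and at 766, 808 and 841 CPM (2.22 ± 0.05), while NQO1 (0.84 ± 0.05), HMOX1 (0.81 ± 0.05) and TXNRD1 (0.80) rose less. NFE2L2, which encodes NRF2, was at 180 ± 9.7 CPM with vehicle and 180 ± 6.3 CPM with the extract (0.01 ± 0.05, adjusted p = 0.931).

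Of 10 tested aldo-keto reductases, enzymes that reduce aldehydes and ketones, 6 rose and 2 fell. AKR1B10 was at 40.1, 38.8 and 40.3 CPM with vehicle and at 188, 192 and 203 CPM with the extract (2.29 ± 0.07). AKR1C1 rose by 1.40 ± 0.05 and the related AKR1C3 by 0.66, and reads shared among AKR1C copies leave their split uncertain. AKR1D1, of bile acid synthesis, fell by 0.93. In the pentose phosphate route and NADPH supply, 4 of 10 tested genes rose and 3 fell. PGD (0.47), TKT (0.49) and TALDO1 (0.57), enzymes of the route, rose.

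Metallothioneins fell to an extent that differed between members. Of 7 tested genes 6 fell and none rose, with a median of -3.09. MT1G was at 94, 84.3 and 78.5 CPM in the vehicle libraries and at 2.94, 2.62 and 3.05 CPM in the treated ones. MT1F was at 60.1, 47.7 and 44.8 CPM and at 1.76, 2.89 and 2.19 CPM. MT2A was at 420, 345 and 352 CPM and at 249, 250 and 254 CPM. All groups were apart, and the log2 fold changes were -4.90 ± 0.17, -4.48 ± 0.16 and -0.57 ± 0.11. MT1E (-3.09 ± 0.11), MT1X (-2.49 ± 0.13) and MT1M (-3.85 ± 0.56, under 1.3 CPM) fell in between, and MT1A (-0.13), at about 1.5 CPM, did not pass the test. The 4 other genes on the list had too few counts. These genes lie side by side on chromosome 16 and are near copies of each other, so reads may be split among them with error.

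Promoters of 2 tested metallothioneins had a sequence in the table used here, MT1X and MT2A, and they are shown because their genes fell to a different extent. The word of the metal response element, TGCACNC or TGCGCNC, stood in 32.8% of all promoters. It occurred 4 times in MT1X, at chr16:56682220-56682469, and 7 times in MT2A, at chr16:56608334-56608583, both on the plus strand and in capitals here.
MT1X: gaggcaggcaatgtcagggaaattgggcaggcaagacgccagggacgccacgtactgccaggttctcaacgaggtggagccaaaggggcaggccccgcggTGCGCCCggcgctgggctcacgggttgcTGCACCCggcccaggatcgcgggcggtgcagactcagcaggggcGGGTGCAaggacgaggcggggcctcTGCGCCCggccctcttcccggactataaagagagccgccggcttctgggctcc
MT2A: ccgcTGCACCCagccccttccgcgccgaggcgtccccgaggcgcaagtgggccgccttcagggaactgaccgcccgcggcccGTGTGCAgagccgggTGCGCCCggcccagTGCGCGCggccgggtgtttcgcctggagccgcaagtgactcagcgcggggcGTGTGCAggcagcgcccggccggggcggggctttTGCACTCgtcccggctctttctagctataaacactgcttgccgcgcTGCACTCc
The 250 bases of MT2A thus held more words than those of MT1X, which fell further.

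Most zinc transporters that changed rose. On the list of 19 tested zinc transporters with the sensor, 12 rose and 1 fell (5 and 7 with scaling to totals alone). The importers SLC39A10 (2.00 ± 0.07) and SLC39A4 (1.58 ± 0.07) rose, the first from 12.6 ± 0.29 to 50.3 ± 2.6 CPM. The exporter SLC30A1, a further target of MTF1, was at 98.6, 90.4 and 96.7 CPM with vehicle and at 63.6, 67.8 and 65.4 CPM with the extract (-0.54 ± 0.07). MTF1 itself was at -0.16 and not called.

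Hepcidin and several targets of BMP signalling fell, within a list that as a whole was mixed. HAMP, which encodes hepcidin, was at 5.78, 7.67 and 5.98 CPM in the vehicle libraries and at 0.307, 0.184 and 0.19 CPM in the treated ones (-4.80 ± 0.27), values that rest on few counts. ID3, an inhibitor of helix-loop-helix factors and a direct BMP target, was at 13.7, 14.3 and 11.7 CPM and at 4.21, 3.31 and 3.05 CPM (-1.90 ± 0.14), and ID1 fell by 1.21. The inhibitory SMAD6 and SMAD7, which the same signal induces, fell by 0.73 and 0.63. Of the 19 tested genes of this list 8 fell, 3 rose and 8 were not called, with a median of -0.20. Over all genes tested 31.6% fell and 31.1% rose. Among the list members that rose was the receptor ACVR1 (0.99 ± 0.07), and ID2 at -0.12 was not called. In iron uptake and storage 9 of 14 genes rose and 3 fell. The ferritin subunits FTH1 (1.01 ± 0.07) and FTL (0.89) rose, as did the transferrin receptor TFRC (0.59), and the iron exporter SLC40A1 was at -0.01.

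Genes of DNA replication and mitosis fell together. Of 39 genes for replication origins and forks all 39 fell, with a median of -1.21, and of 51 kinetochore and spindle genes all 51 fell, with a median of -1.33. CENPE was at 42, 41.2 and 39.3 CPM in the vehicle libraries and at 3.73, 4.55 and 3.09 CPM in the treated ones. SMC4, a subunit of condensin, which compacts chromosomes, was at 148, 141 and 141 CPM and at 26.2, 27.2 and 27.4 CPM. MCM10, a factor that starts replication, was at 41.7, 41.6 and 44.1 CPM and at 13.3, 11.7 and 12.8 CPM. None of these groups overlapped, and the log2 fold changes were -3.42 ± 0.16, -2.41 ± 0.08 and -1.76 ± 0.08. TOP2A, the topoisomerase of dividing cells, fell by 2.09, POLE, the leading-strand polymerase, by 1.58 and the polymerase clamp PCNA by 1.11. The weakest falls were MIS12 (-0.21) among kinetochore genes and CDT1 (-0.53) among replication genes.

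Of 21 cyclins, cyclin-dependent kinases and E2F factors 18 fell and none rose, with a median of -1.07. The repressor E2F8 (-2.24 ± 0.09) and the ubiquitin ligase subunit SKP2 (-1.71 ± 0.06), which removes the inhibitor p27, led the falls, and CDK4 (-0.12), CCND3 (-0.08) and CCND2 (0.32) were not called. All 33 genes of homologous recombination and Fanconi anaemia repair fell, with a median of -1.20, among them BRCA1 (-1.74 ± 0.07), XRCC2 (-1.79) and FANCA (-1.79). Of 36 genes of centrioles and centrosomes 34 fell, with a median of -1.08, led by LRRCC1, which was at 8.49, 7.34 and 9.49 CPM with vehicle and at 1.36, 0.827 and 1 CPM with the extract. Cell cycle inhibitors were mixed, with 6 of 16 tested that rose and 8 that fell. CDKN1A, which encodes p21, was at 145, 126 and 130 CPM and at 245, 228 and 225 CPM (0.80 ± 0.09), GADD45B rose by 1.46 and CDKN2B by 1.27, and RBL1 fell by 1.41. Targets of p53 showed no common direction: of 26 genes 6 rose and 10 fell, with a median near 0, MDM2 was at 0.02 ± 0.07 (adjusted p = 0.845) and BAX at -0.01.

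The site of E2F factors, TTTGGCGC or TTTCGCGC, stood in 1.7% of all promoters, in 3.1% of those of genes that fell at least 2-fold, in 0.6% of those that rose at least 2-fold and in 5 of 33 with a sequence on the replication list. The cell cycle homology region TTTGAA, found in genes of mitosis, stood in 8.6% of all promoters, in 15.1% of those of genes that fell at least 2-fold, in 8.4% of those that rose at least 2-fold and in 21 of 44 on the kinetochore list. Not every gene with the respective word on those lists was considered for display, so genes left out may have fallen further. Among those considered, POLE and SMC4 fell furthest. Their promoters, at chr12:132687343-132687592 on the minus strand for POLE and chr3:160399400-160399649 on the plus strand for SMC4, are shown with the word in capitals, which in both reads as its reverse complement.
POLE: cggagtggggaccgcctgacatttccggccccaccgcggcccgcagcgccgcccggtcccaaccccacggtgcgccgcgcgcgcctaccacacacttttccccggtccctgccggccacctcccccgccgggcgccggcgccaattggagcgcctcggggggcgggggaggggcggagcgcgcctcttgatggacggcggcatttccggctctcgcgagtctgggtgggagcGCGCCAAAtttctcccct
SMC4: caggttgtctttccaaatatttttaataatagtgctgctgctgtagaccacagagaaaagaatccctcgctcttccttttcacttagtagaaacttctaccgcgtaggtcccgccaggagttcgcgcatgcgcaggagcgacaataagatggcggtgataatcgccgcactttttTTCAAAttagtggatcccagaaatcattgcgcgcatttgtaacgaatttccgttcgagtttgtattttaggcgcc
The words begin 18 and 75 bases before the start.

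Genes for RNA processing and chromatin fell by smaller amounts. Of 34 splicing genes 30 fell and 1 rose, with a median of -0.45. LUC7L3, a factor of the U1 particle, was at 128, 125 and 130 CPM in the vehicle libraries and at 31.9, 31.3 and 34.7 CPM in the treated ones (-1.97 ± 0.07). SRSF6 was at 245, 230 and 237 CPM and at 110, 97.5 and 111 CPM (-1.16 ± 0.04), and the kinase CLK4 rose by 0.39. Of 33 genes of ribosome biogenesis 19 fell and 5 rose (median -0.24), with 3 that rose without vehicle replicate 3. The falls were led by the box C/D proteins NOP58 (-1.21 ± 0.09) and NOP56 (-1.10). Of 36 chromatin genes tested, 19 fell and 8 rose (median -0.23). EZH2, the methyltransferase of Polycomb repression, was at 44.4, 41.5 and 42.7 CPM and at 14.9, 13.2 and 11.9 CPM (-1.68 ± 0.08), DNMT3B fell by 1.42, and the oxygen-dependent demethylases KDM4B (1.34 ± 0.09) and KDM3A (1.16) rose. Among long non-coding RNAs 6 of 15 tested rose and 7 fell. MALAT1, a nuclear transcript, was at 394, 388 and 422 CPM and at 1224, 1236 and 1344 CPM (1.66 ± 0.08), its neighbour NEAT1 fell by 1.12 and the host of small nucleolar RNAs SNHG1 by 1.44.

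Liver functions did not move as a block. Of 21 hepatocyte transcription factors 11 rose and 5 fell, with a median of 0.10. NR1H4, the bile acid receptor FXR, was at 53.6, 50.1 and 49.7 CPM with vehicle and at 16.7, 17.7 and 18 CPM with the extract (-1.55 ± 0.07). NR0B2, the repressor SHP that FXR normally induces, moved the other way, from 41.7, 40.3 and 43.3 CPM to 132, 148 and 138 CPM (1.74 ± 0.11). In the C/EBP family CEBPA fell by 1.00 and CEBPD rose by 1.76 ± 0.10, and on the list of amino acid stress regulators CEBPB rose by 1.91 ± 0.12. HNF4A rose by 0.39 and FOXA1 fell by 0.96. Of 22 carrier plasma proteins 10 rose and 8 fell. ALB, albumin, at 10580, 10610 and 11450 CPM with vehicle and 11080, 12130 and 12110 CPM with the extract, overlapped between the groups and was not called (0.11 ± 0.07, adjusted p = 0.129), while SERPINA1, antitrypsin, rose by 0.84 ± 0.07. Of 30 tested coagulation and complement genes 13 fell and 10 rose. Kininogen KNG1 fell by 2.27, C8A by 1.51 and the fibrinogen chains FGG, FGA and FGB by 0.94, 0.82 and 0.33. Of 19 genes for lipoproteins 13 rose and 4 fell, with APOA4 (2.10) and ANGPTL4 (1.96) among those that rose and LCAT, which esterifies cholesterol in plasma, among those that fell (-0.82 ± 0.08).

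In nitrogen metabolism 10 of 22 tested genes rose and 7 fell. NAGS, which makes the activator of the urea cycle, was at 2.41, 3.21 and 2.86 CPM with vehicle and at 15.8, 16.2 and 16.9 CPM with the extract (2.52 ± 0.16), and the arginases ARG1 (1.45 ± 0.14) and ARG2 (1.61) rose. CPS1, the first enzyme of the cycle, fell by 0.82. MAT2A, which makes S-adenosylmethionine outside the normal liver, was at 313, 299 and 320 CPM and at 79.9, 75.7 and 75.1 CPM (-2.01 ± 0.04). In bile acid metabolism 6 of 12 tested genes rose and 4 fell. CYP7A1, the rate-limiting enzyme of synthesis, fell from 5.12 ± 0.48 to 2.05 ± 0.37 CPM (-1.32 ± 0.12), and the exporter subunits SLC51A (1.39 ± 0.07) and SLC51B (0.80) rose. Of 10 tested targets and partners of the aryl hydrocarbon receptor 6 rose and 2 fell. CYP1A1, its classic target, was at 12.3, 10.7 and 12.5 CPM and at 43, 35.1 and 37.8 CPM (1.71 ± 0.10), while TIPARP (0.14) and AHRR (0.36) did not pass the test. Of 18 other drug-metabolising enzymes tested 9 fell and 3 rose, and CYP3A4 was under 1 CPM in both group means.

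Lipid genes divided by branch. Of 25 tested genes for cholesterol synthesis and uptake 20 rose and 1 fell (10 and 6 with scaling to totals alone), and the list median was 0.28. DHCR7, which makes cholesterol in the last step of its route, was at 374, 363 and 384 CPM in the vehicle libraries and at 792, 754 and 793 CPM in the treated ones (1.06 ± 0.07), with no overlap, and LSS fell by 0.31. Fatty acid synthesis was split, with 11 of 22 tested genes that rose and 9 that fell. The glucose-sensing factor ChREBP, encoded by MLXIPL, was at 181, 192 and 198 CPM and at 53.1, 50.9 and 46.6 CPM (-1.92 ± 0.07). The acyltransferases of triglyceride synthesis GPAM (-1.58 ± 0.06) and DGAT1 (-1.12) fell, and ACSL3 (1.04), ACLY (0.74) and SCD (0.62 ± 0.04) rose. Fatty acid oxidation had 10 genes that rose and 7 that fell of 25 tested, but 6 and 6 without vehicle replicate 2 and 6 and 7 without treated replicate 3. CPT1A, the gate of entry into mitochondria, was at 43.3, 46.4 and 44.5 CPM and at 125, 122 and 128 CPM (1.48 ± 0.07), and HADH fell by 1.16. Of 12 tested genes of lipid droplets 7 rose and 2 fell. PLIN2, the coat of liver droplets, was at 184, 192 and 190 CPM and at 1129, 1195 and 1230 CPM (2.65 ± 0.10), while PLIN1, the coat of fat cells, was at 3.79, 4.17 and 3.3 CPM and at 0.483, 0.781 and 0.714 CPM (-2.51 ± 0.20).

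Genes of the lysosome and of autophagy rose almost throughout, with 31 of 36 that rose, 1 that fell and a median of 0.59. GABARAPL1, an autophagosome protein, was at 11.5, 11.2 and 11.9 CPM with vehicle and at 37.9, 37.2 and 35.8 CPM with the extract (1.68 ± 0.07). MAP1LC3B, of the same family, rose by 1.39 ± 0.05, the protease CTSB by 1.25 ± 0.05, the cholesterol exporter NPC1 by 1.28 and RRAGD, a nutrient-sensing GTPase, by 2.25 ± 0.25 at under 4 CPM. TFEB, a master factor of lysosomal genes, was the member that fell, from 10 ± 0.62 to 6.78 ± 0.67 CPM (-0.57 ± 0.12). Among regulators of cell death 15 of 25 tested rose and 3 fell. MCL1, which protects from apoptosis, was at 176, 163 and 168 CPM and at 505, 484 and 496 CPM (1.55 ± 0.05), the pro-apoptotic BBC3 rose by 1.16 and BCL2L11 fell by 0.72.

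Further groups held single strong members. Of 31 tested genes of TGF-beta, matrix and adhesion 17 rose and 8 fell, and TGFB1, the ligand, was at 44.4, 46.2 and 44.8 CPM with vehicle and at 197, 192 and 170 CPM with the extract (2.05 ± 0.09). The collagen receptor subunit ITGA2 rose by 2.18 ± 0.07. Of 17 tested clock genes 10 fell and 6 rose. BHLHE40, a repressor that hypoxia also induces, rose by 2.51 ± 0.17, while PER2 fell by 0.89. Among 17 tested genes of Wnt signalling 7 fell and 4 rose, with the inhibitor DKK1 from 127 ± 4.8 to 52.8 ± 2.4 CPM (-1.27 ± 0.08) and AXIN2, a general target, at -0.18. Of 14 tested genes of ion handling 11 rose and 2 fell, among them CA9 and AQP3, given above, and the carbonic anhydrase CA12 (1.66 ± 0.33), at about 1 CPM or less.

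**Figure D3:**
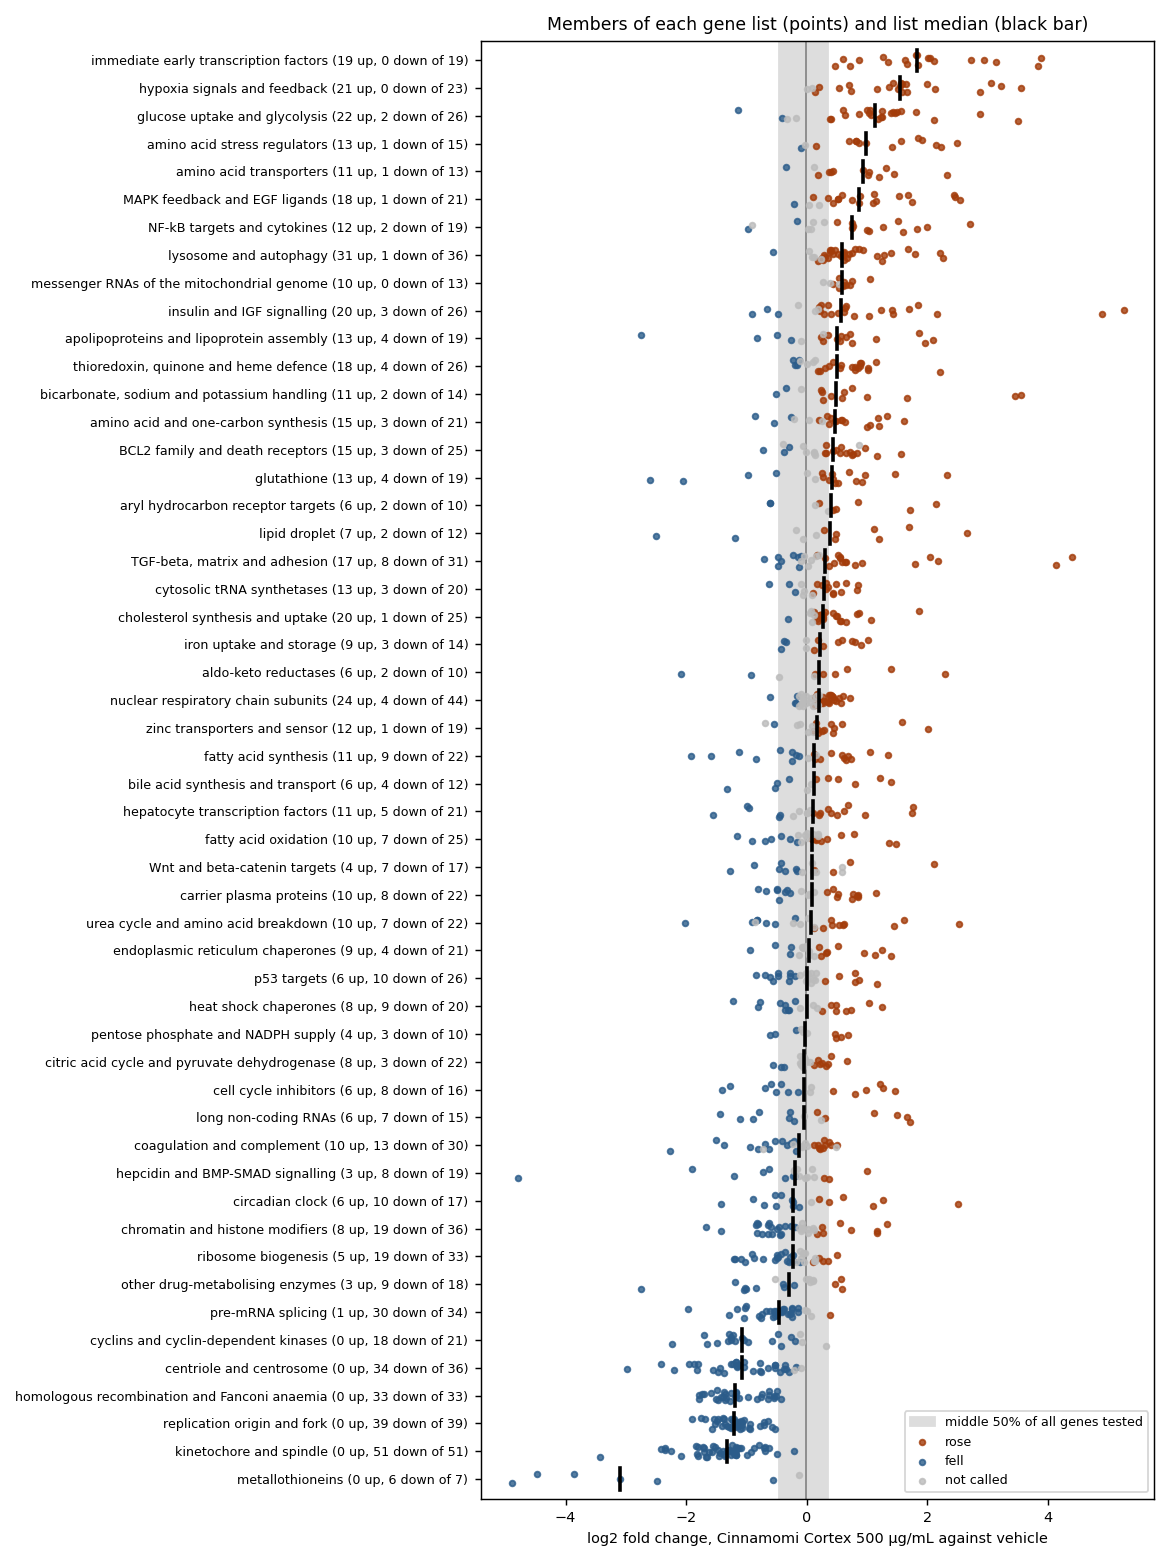
Each row is 1 gene list, with its tested members as points at their log2 fold change at 500 µg/mL against vehicle, coloured by the call, and the list median as a black bar. The grey band holds the middle 50% of all 16166 genes, from -0.45 to 0.35, and the medians of the replication, recombination and kinetochore lists lie below it, with every member called lower and a few members inside the band.

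Comparisons within the set do not use the vehicle libraries. Against 20 µg/mL, 10012 genes were called at 500 µg/mL (61.9%), 4940 higher (30.6%) and 5072 lower (31.4%), and against Astragali Radix at 500 µg/mL 10130 genes were called (62.7%), 4990 higher (30.9%) and 5140 lower (31.8%). These contrasts share the 3 treated libraries with the one against vehicle, so their values are given side by side and no likeness is drawn from them. The log2 difference of IGFBP1 was 4.89 against vehicle, 3.76 against 20 µg/mL and 4.86 against Astragali Radix. That of MT1G was -4.90, -4.50 and -4.16, and that of CENPE -3.42, -3.35 and -3.59. Against 20 µg/mL, all 39 replication genes and all 51 kinetochore genes were lower and all 19 immediate early factors were higher. The same counts held against Astragali Radix. Of the 7 tested metallothioneins 6 were lower against 20 µg/mL and 5 against Astragali Radix, and none was higher. The difference of MT2A was -0.57 against vehicle, -0.36 against 20 µg/mL and 0.18 against Astragali Radix at 500 µg/mL, whose libraries were at 222 ± 18 CPM. Metallothioneins were also lower with Astragali Radix than with vehicle, with a median per library that averaged -0.70 relative to the vehicle mean.

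At 100 µg/mL fewer genes were called. Against vehicle 3144 genes were called (19.4%), 1631 higher (10.1%) and 1513 lower (9.36%), of which 162 changed at least 2-fold. Among the lists with the largest medians at this dose were metallothioneins (6 of 7 lower, median -1.77), hypoxia signals (15 of 23 higher, median 0.56), amino acid transporters (8 of 13 higher, median 0.45), glycolysis (17 of 26 higher, median 0.38) and amino acid stress regulators (12 of 15 higher, median 0.36). SLC7A11 stood at 86.9 ± 0.56 CPM at 100 µg/mL and ASNS at 95 ± 3.0 CPM, against 29.2 ± 0.65 and 44.7 ± 2.2 CPM with vehicle. Replication genes were lower in 25 of 39 cases but with a median of only -0.24. Their median per library, relative to the vehicle mean, averaged -0.17 at 20 µg/mL and -0.24 at 100 µg/mL. Lysosome and autophagy genes were higher in 7 of 36 with a median of 0.05. MT2A was at 180 ± 15 CPM at 100 µg/mL, below its 251 ± 2.7 CPM at 500 µg/mL.

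Between 100 and 500 µg/mL, 8960 genes differed (55.4%), 4470 higher (27.7%) and 4490 lower (27.8%) at the higher dose, by edgeR's quasi-likelihood test. Calls of cholesterol genes against vehicle pointed mostly the other way at the lower dose, with 1 of 25 higher and 11 lower at 100 µg/mL (median -0.13). Their median per library, relative to the vehicle mean, averaged 0.03 at 20 µg/mL and -0.142 at 100 µg/mL. With Astragali Radix at 500 µg/mL it averaged -0.125, so a low value was not particular to this herb. HMGCS1, which makes a precursor of cholesterol, was at 638, 602 and 591 CPM with vehicle, at 486, 443 and 462 CPM at 100 µg/mL and at 676, 646 and 671 CPM at 500 µg/mL. The libraries at 100 µg/mL lay below those with vehicle and those at 500 µg/mL, with a fall of 0.40 on the log2 scale against vehicle. At 500 µg/mL the value against vehicle was 0.12 and not called, and the difference between the doses was 0.52 ± 0.06. With scaling to totals alone that value against vehicle was -0.16, so its direction rests on the scaling, and DESeq2 called it higher. Between the doses 23 of 25 cholesterol genes were higher and none was lower at 500 µg/mL, with a median of 0.46. Of 22 genes for fatty acid synthesis 12 were lower and 1 higher at 100 µg/mL, and FASN, the fatty acid synthase, was at -0.23 at 100 µg/mL and at 0.41 at 500 µg/mL. The median of this list per library averaged -0.157 at 100 µg/mL and -0.086 with Astragali Radix at 500 µg/mL. Lysosome and autophagy genes differed between the doses in 31 of 36 cases, 30 higher and 1 lower at 500 µg/mL.

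**Figure D4:**
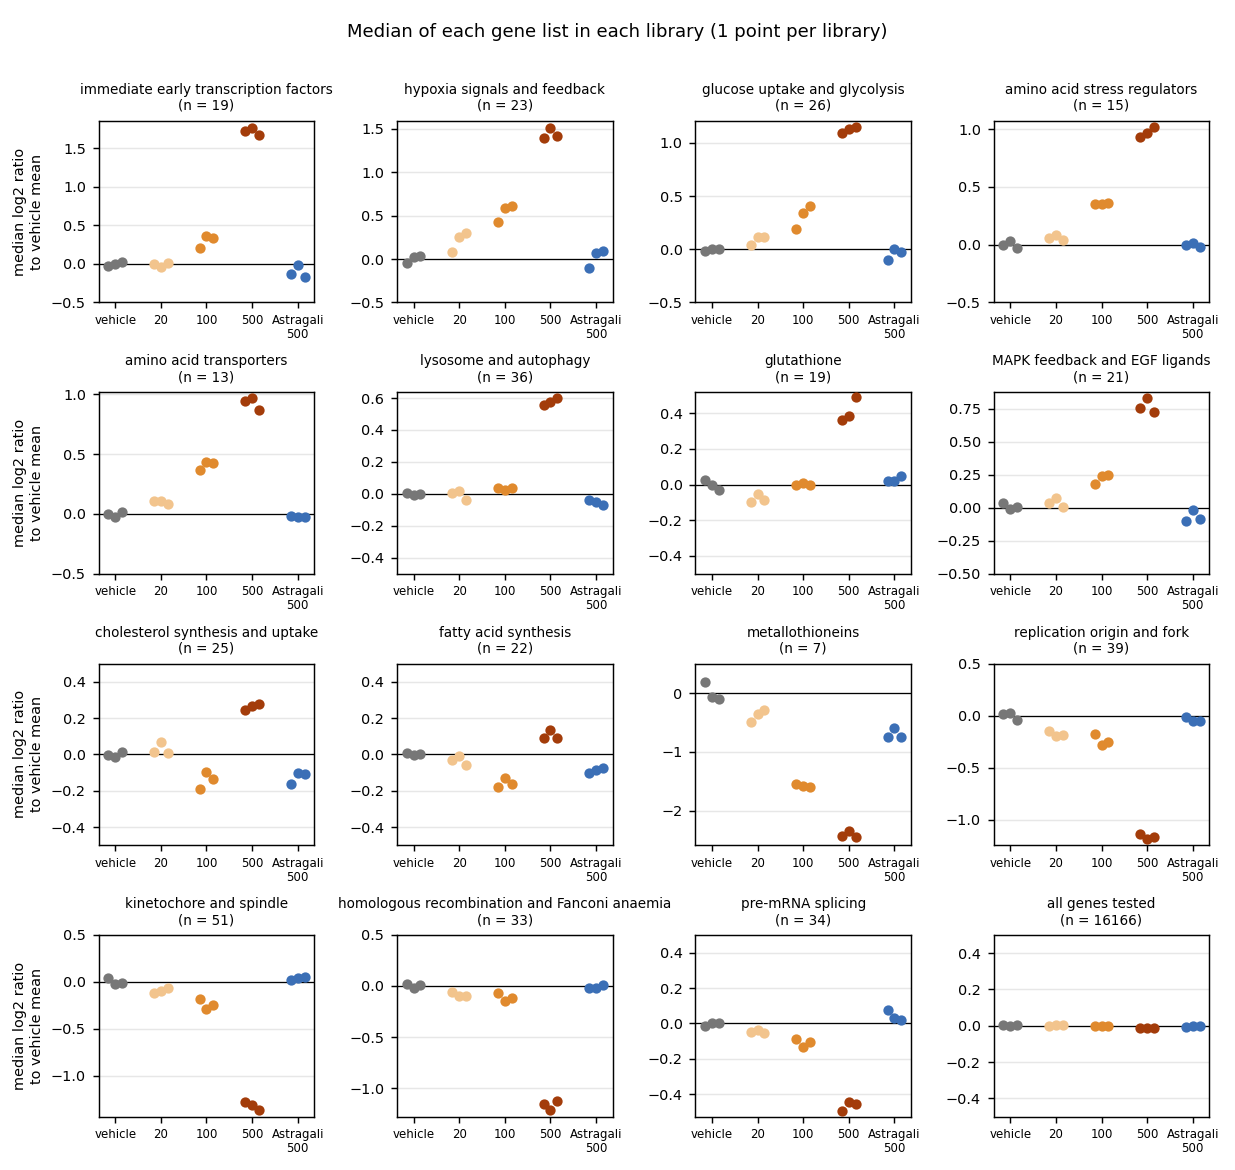
Each panel is 1 gene list, with the median over its members of the log2 ratio of CPM to the vehicle mean (0.5 CPM added) in each library, 1 point per library, for vehicle, Cinnamomi Cortex at 20, 100 and 500 µg/mL and Astragali Radix at 500 µg/mL. The 3 points at 500 µg/mL lie together and away from 0 in the immediate early, hypoxia and cell cycle lists. The last panel, all genes, stays near 0, where TMM scaling sets the centre.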

How the data were processed

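RNA of HepG2 cells was sequenced with a directional kit in 100-base paired ends. Expected counts per gene were deposited by the authors, who aligned reads to GRCh38 with STAR 2.7.3a and counted with RSEM 1.3.3 after trimming with Trim Galore 0.6.5, per the submitters' processing notes. The annotation release and the strand setting of the counting are not given in the sources used here. The deposited table held 270 columns, of which 60 matched samples by name and 210 were not used. Expected counts were rounded (8.58% of values were not whole), and 57055 gene IDs were named from GENCODE release 29. Genes kept by filterByExpr were fitted with edgeR 4.0.16 in R 4.3.3, by the quasi-likelihood test with TMM scaling and Benjamini-Hochberg adjustment over 16166 genes, on the 57 libraries of the 19 groups with 3 libraries. CPM values (counts scaled to library size) use the same scaling, and a gene was called at an adjusted p under 0.05. The SE of a log2 fold change was back-calculated as its size divided by the square root of the test's F value, so it is approximate. The fit was tested on simulated data for the comparison with vehicle, on 16166 genes of which 200 were changed. The changed genes were drawn from those at a mean of at least 1 CPM with vehicle, so the rates do not cover genes below that. The test recovered 98% of genes changed by 2-fold and 44% of those changed by 1.2-fold, and 8 of its 167 calls were false. In the real comparison 62.7% of genes were called, far more than were changed in the simulation, so these rates need not hold there. The alternatives were other scalings, no filter, DESeq2 1.42.0, a replicate block, fewer groups in the fit and each library left out. The contrast between 100 and 500 µg/mL was added after the data were seen. The comparison and the gene lists were chosen with earlier results of these data known. Genes named for size were the 15 with the largest change in each direction among those called, at a mean of 2 CPM or more and with no overlap between groups. List members named were those with the largest called changes or those whose role the sentence is about. Some genes that meet these rules are not reported here. Promoters were taken from RefSeq, build GRCh38.p14.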

Additional observations from a re-analysis of the deposited data

Results flagged for a closer look

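The direct comparison of the herbs at 500 µg/mL called many genes. Of the genes tested, 10130 were called different between Cinnamomi Cortex and Astragali Radix at this dose, 3 libraries each, by edgeR's quasi-likelihood test of the difference itself. The treated libraries are those of the comparison with vehicle.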

How the results depend on the processing

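The count of called genes stayed within 1.5 times its value under every alternative run for the 5 contrasts. Against vehicle it was 9748 with DESeq2 and 9476 to 9670 with each library left out in turn. The left-out ranges were 9364 to 9529 against 20 µg/mL, 9460 to 9655 against Astragali Radix, 8187 to 8460 against 100 µg/mL and 2157 to 2934 for 100 µg/mL against vehicle. Scaling to library totals alone lowered the share of called genes that were higher to 24.2% against vehicle, 23.1% against 20 µg/mL, 26.1% against Astragali Radix, 25.3% against 100 µg/mL and 24.6% for 100 µg/mL against vehicle. It turned HIF1A to -0.15, HIF1AN to -0.19, HMGCS1 to -0.16, MDM2 to -0.26, NFE2L2 to -0.27, NFKBIA to -0.18 and VHL to -0.27, and the cause was not tested. Leaving out 1 library moved the counts of 3 lists by over 1.5 times and by more than 1 gene, those given in the report for fatty acid oxidation, thioredoxin and ribosome biogenesis genes. With a replicate block 10200 genes were called against vehicle. Deviations of same-numbered vehicle and treated libraries correlated at 0.063, 0.036 and -0.021, so the numbers were not taken as a pairing. MTF1 and HMGCS1 were the genes named here that the block brought past the threshold. Within the set, same-numbered libraries of Cinnamomi Cortex and Astragali Radix at 500 µg/mL correlated at 0.057, 0.079 and 0.064. Other numbers were at -0.069 to 0.008. Against Cinnamomi Cortex at 20 µg/mL the values were 0.067, 0.018 and -0.009, and -0.048 to 0.032 for other numbers. Libraries of the set may thus share variation by number, which the main fit leaves out. With the block 10182 genes were called against Astragali Radix and 10071 against 20 µg/mL. Genes at under 1 CPM rest on few counts.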
